A study of Rattus norvegicus with 9 samples.

Results

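Kinesins are motor proteins that walk along microtubules, and their genes were followed here in the frontal cortex of rats that had been separated from their mothers early in life. A gene counted as a kinesin when the deposited table typed it as mRNA, its symbol began with Kif or Klc followed by a number (or by c for the C-terminal motors), and its reads over all rats summed to at least 45. The rule gave 39 of the 37209 genes in the table, of which 23422 were typed as mRNA. They were sorted by role into 17 transport kinesins, 3 kinesin light chains, 9 mitotic kinesins and 10 others. Another 7 kinesin genes lay under the limit. Of these, Kif12 and Kif2b had 0 reads, and Kif18b, at 44 reads, lay just outside the limit while Kif22, at 54, lay just inside it.

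The samples came from 9 male Wistar rats aged 14 weeks, with 3 rats in each of 3 groups. Separation was applied by litter, and the labels do not give the litter of a rat. Whether rats of a group were littermates is therefore not known, and rats were treated as independent. Control rats stayed with their mothers until weaning and later received anaesthesia alone. MS rats (maternal separation) spent 4 h of each day without their mothers from postnatal day (PND) 1 to PND 21, and likewise received anaesthesia alone. MS+EA rats had the same separation and then electroacupuncture at the GV20 and GV29 points of the head under anaesthesia, every other day from PND 61 to PND 81. The sequenced groups held no needle control, so the current and the handling of the MS+EA rats cannot be told apart. No group had electroacupuncture without separation. MS+EA and Control rats therefore differ in both, and separation and electroacupuncture cannot be told apart in that comparison.

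In neurons, transport kinesins carry vesicles, mitochondria and RNA from the cell body towards the ends of axons and dendrites. The founding motor, kinesin-1, pairs heavy chains (Kif5a, Kif5b and Kif5c) with light chains (Klc genes) that bind the cargo. Kinesin-2 (Kif3 genes and Kif17) and kinesin-3 (Kif1 and Kif13 genes) carry other loads. Mitotic kinesins build the spindle, move chromosomes and complete cell division, and most cells of the adult cortex no longer divide. Several mitotic kinesins, Kif11, Kif20b and Kif23 among them, are also known from growing neurons, where they act on microtubules of the axon and dendrites.

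Each rat gave between 12479905 and 19007907 counted reads, and every MS+EA rat (12479905 to 14913736) lay below every Control and MS rat (lowest 16106381). Values are given as CPM, reads scaled to a common library total, with that total corrected by the trimmed mean of M values (TMM). Kinesin genes together took 0.816% to 0.862% of all reads in Control, 0.750% to 0.825% in MS and 0.771% to 0.803% in MS+EA rats. Marker genes of neurons, oligodendrocytes, their precursors, astrocytes, microglia and endothelium were detected in all 9 rats. The summed level of 10 neuron markers was 7165 to 7361 CPM in Control, 7371 to 8025 CPM in MS and 6424 to 7655 CPM in MS+EA rats. Because the tissue was a mix of cells, fewer cells of a type and less RNA per cell cannot be told apart.

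Of the 39 kinesin genes, 37 were expressed strongly enough to be tested, and Kif19 and Kif20a were not. A gene was taken as changed at a Benjamini-Hochberg adjusted p under 0.05 in edgeR's quasi-likelihood test and a fold change above 1.5. Between MS and Control rats 0 kinesin genes changed by this rule, against 0.0238% of all 16837 genes tested. Nor did any between MS+EA and MS rats (0 genes), against 0.0178% of all genes. Between MS+EA and Control rats 1 kinesin gene changed, the mitotic kinesin Kif20b, against 1.37% of all genes. At the adjusted p alone, 3 kinesin genes differed between MS+EA and Control rats, against 5.40% of all genes. These were Kif20b and Kif5b, which were higher in MS+EA rats, and Kif3c, which was lower.

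**Figure D1:**
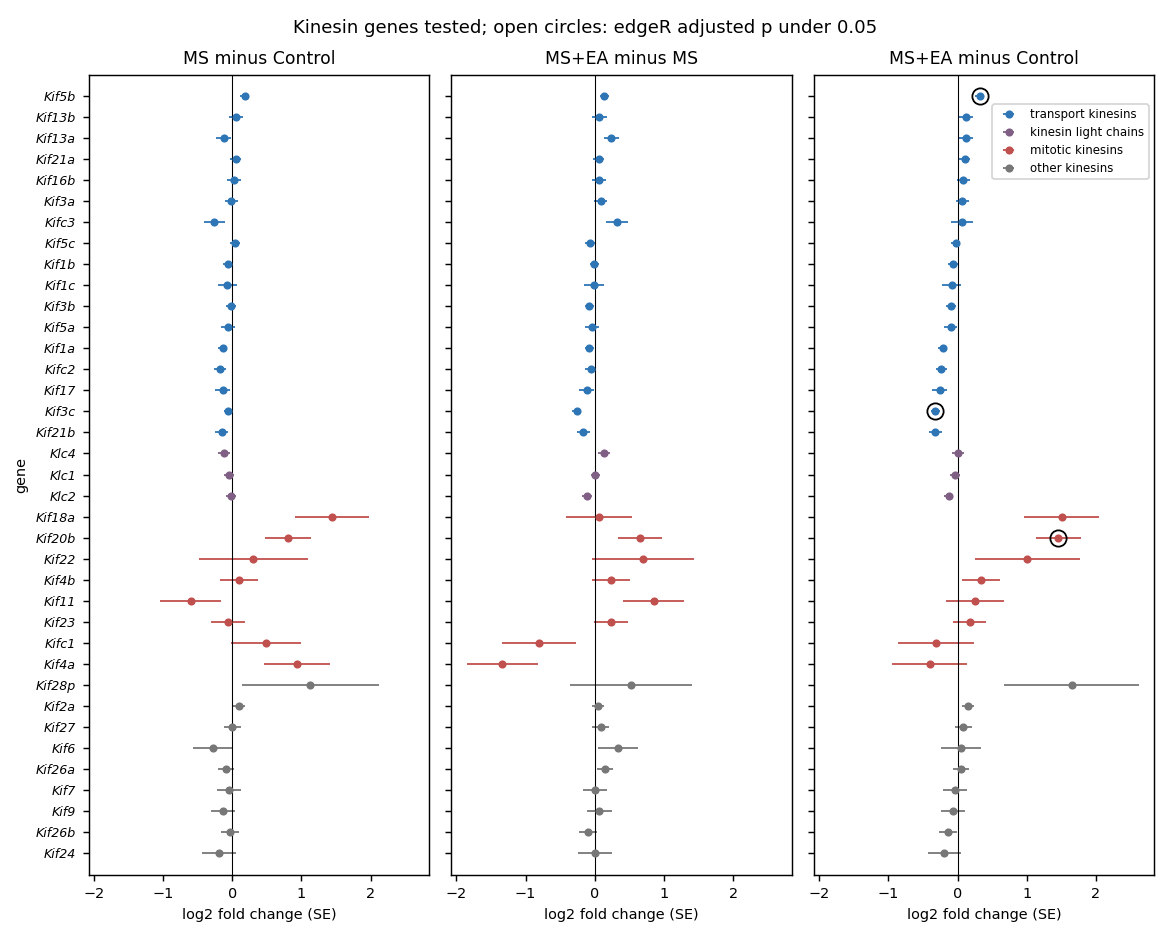
Log2 fold change (x axis, with standard error as bars) of the 37 kinesin genes tested (y axis), in the comparisons of MS with Control, MS+EA with MS and MS+EA with Control. Colours give the role and open circles mark adjusted p under 0.05; the transport kinesins sit within 0.32 of 0 in every comparison, and the mitotic kinesins spread from -1.34 to 1.504.

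At an unadjusted p under 0.05, edgeR's test gave 3 kinesin genes higher (Kif5b, Kif18a and Kif20b) and 1 lower (Kifc2) in MS than in Control rats, against 7.06% and 3.55% of all genes. Between MS+EA and MS rats, 2 were higher (Kif5b and Kif13a) and 2 lower (Kif3c and Kif4a), against 6.01% and 6.42% of all genes. Between MS+EA and Control rats, 3 were higher (Kif5b, Kif18a and Kif20b) and 5 lower (Kif1a, Kif3c, Kif17, Kif21b and Kifc2), against 11.9% and 10.6% of all genes. These counts lie near the background shares, so they do not set kinesin genes apart from other genes. In the same comparisons DESeq2 gave 0, 0 and 1 kinesin genes past both thresholds, against 70, 37 and 316 of all 16837 genes. It gave 4, 4 and 7 kinesin genes at an unadjusted p under 0.05. Over all genes DESeq2 gave 1056, 905 and 1839 higher and 570, 982 and 1726 lower at that p.

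The 3 rats of one group lay wholly above or below the 3 of the other for a similar part of the family. Between MS and Control rats this held for 6 kinesin genes, with Kif5b and Kif20b higher and Klc4, Kif1a, Kif6 and Kif17 lower, against 17.6% of all genes in either direction. Between MS+EA and MS rats it held for 9, with Klc4, Kif5b, Kif11, Kif20b and Kifc3 higher and Kif1a, Kif3c, Kif4a and Kif17 lower, against 17.9% of all genes. Between MS+EA and Control rats it held for 7, with Kif5b, Kif18a and Kif20b higher and Kif1a, Kif3c, Kif17 and Kif21b lower, against 25.9% of all genes. Only Kif5b and Kif20b upwards and Kif1a and Kif17 downwards were ordered in all 3 comparisons. The share of all genes ordered in all 3 was not counted, so this order does not set these genes apart. The comparisons share rats, so a gene that appears in several of them is not seen in independent data.

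Transport kinesins differed little by their medians. Their median log2 fold change was -0.06 in MS against Control, -0.01 in MS+EA against MS (0.03 when scaled by total counts) and -0.07 in MS+EA against Control rats, beside medians over all genes of -0.00, 0.00 and 0.01. The mitotic kinesins had medians of 0.40, 0.24 and 0.30 in the same order, with 6 of the 8 tested above 0 in each comparison. Those above 0 include Kif4b, which RefSeq lists as a pseudogene. Counts of the mitotic kinesins were low and their medians moved with single rats, from 0.16 to 0.68, from 0.12 to 0.40 and from 0.18 to 0.46 when each rat was left out in turn. Kinesin light chains had medians of -0.05, 0.01 and -0.04, and the other kinesins of -0.05, 0.07 and 0.05. The spread between rats of a group followed the same division. The median coefficient of variation of transport kinesins was 5.27% in Control, 5.77% in MS and 6.18% in MS+EA rats, while that of mitotic kinesins was 47.5%, 36.8% and 19.4%. Summed, the transport kinesins gave 6872 to 7557 CPM in Control, 6410 to 7138 CPM in MS and 6511 to 6723 CPM in MS+EA rats. Every MS+EA rat lay below every Control rat, and the MS rats overlapped with both groups. Kif1a, Kif5a and Kif1b weigh most in this sum, with means of 1852, 1832 and 1397 CPM of 7163 CPM in Control rats. Of the 17 genes, 7 had a log2 fold change above 0 and 10 below 0 between MS+EA and Control rats. In MS+EA against Control rats 5 of the 17 were lower and 1 higher at an unadjusted p under 0.05 by edgeR, against 10.6% and 11.9% of all genes.

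Kif5b, the heavy chain of kinesin-1 found in most cell types, was the transport kinesin that was higher in MS+EA than in Control rats at edgeR's adjusted p. Its level was 179, 172 and 171 CPM in Control, 199, 195 and 198 CPM in MS and 218, 204 and 230 CPM in MS+EA rats. Every MS rat lay above every Control rat, and every MS+EA rat above every MS rat. The means were 174 ± 4.31, 197 ± 2.42 and 217 ± 13.0 CPM (SD, n = 3 rats each). The log2 fold change of Kif5b in MS+EA against Control rats was 0.32 (SE 0.0624), or 1.25-fold, with an adjusted p of 0.0168 by edgeR, below the fold change asked of a changed gene. Without Control rat 1, Control rat 6 or MS+EA rat 16 the adjusted p by edgeR was 0.0646, 0.0636 and 0.0587. The steps from Control to MS (0.18, adjusted p = 0.301 by edgeR) and from MS to MS+EA (0.14, adjusted p = 0.389) were smaller and did not pass.

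The neuronal heavy chains Kif5a and Kif5c gave other values. Kif5a was at 2028, 1669 and 1798 CPM in Control, 2002, 1555 and 1722 CPM in MS and 1776, 1626 and 1722 CPM in MS+EA rats. Kif5c was at 205, 202 and 190 CPM, 202, 194 and 217 CPM, and 198, 180 and 206 CPM. All 3 groups overlapped for both genes. The log2 fold change in MS+EA against Control rats was -0.10 for Kif5a (95% limits -0.29 to 0.09) and -0.03 for Kif5c (-0.17 to 0.11), limits that do not reach the value of Kif5b. Among the reads on the 3 heavy chains, Kif5b took 7.43%, 8.42% and 7.94% in Control, 8.30%, 10.02% and 9.26% in MS and 9.95%, 10.1% and 10.6% in MS+EA rats. The share in MS+EA rats lay wholly above that in Control rats, and the MS rats overlapped with both groups. With 3 rats per group the smallest p that an exact two-sided permutation test can give is 0.1, so shares were not tested. A share of reads depends on transcript length and is no share of molecules.

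The light chains showed no order like that of Kif5b. Klc1, the light chain best known from neurons, was at 704, 719 and 714 CPM in Control, 656, 677 and 739 CPM in MS and 641, 702 and 741 CPM in MS+EA rats. Klc2 was at 280, 248 and 253 CPM, 267, 245 and 259 CPM, and 228, 231 and 255 CPM. The groups overlapped for both, and in MS+EA against Control rats the log2 fold changes were -0.04 for Klc1 (adjusted p = 0.810 by edgeR) and -0.13 for Klc2 (adjusted p = 0.306). Klc4 lay wholly lower in MS (26.2 to 29.0 CPM) than in Control (29.7 to 31.5 CPM) and MS+EA rats (29.3 to 31.2 CPM), with adjusted p of 0.644 and 0.558 by edgeR. Klc3 lay under the read limit with 24 reads over all rats.

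Kif3c, a kinesin-2 motor enriched in neurons, was the transport kinesin that was lower in MS+EA than in Control rats at edgeR's adjusted p. Its level was 280, 252 and 258 CPM in Control, 248, 243 and 267 CPM in MS and 207, 216 and 209 CPM in MS+EA rats. Control and MS rats overlapped, and every MS+EA rat lay below all of them. The means were 263 ± 14.5, 253 ± 12.6 and 211 ± 4.70 CPM (SD, n = 3 each). The log2 fold change was -0.32 (SE 0.0651, adjusted p = 0.0191 by edgeR) against Control and -0.26 (SE 0.0651, adjusted p = 0.207) against MS rats. Without Control rat 1, Control rat 6 or MS+EA rat 16 the adjusted p by edgeR against Control was 0.0943, 0.0556 and 0.0573. DESeq2 gave an adjusted p of 0.0289 against MS rats. On the rat build GRCr8 the gene Asxl2 overlaps Kif3c. It had 62 to 89 reads per rat, far fewer than the 2623 to 5226 of Kif3c.

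The partners in kinesin-2 showed no such order. Kif3a, the subunit common to these motors, was at 109, 116 and 109 CPM in Control, 107, 103 and 122 CPM in MS and 102, 130 and 119 CPM in MS+EA rats. Kif3b, which takes the place beside Kif3a that Kif3c can also take, was at 104, 110 and 102 CPM, 101, 100 and 111 CPM, and 96.5, 104 and 94.9 CPM. The groups overlapped for both genes, and the log2 fold change in MS+EA against Control rats was 0.07 for Kif3a (95% limits -0.11 to 0.25) and -0.09 for Kif3b (-0.23 to 0.04). Of the reads on Kif3b and Kif3c, Kif3c took 73.0%, 69.7% and 71.7% in Control, 71.1%, 70.8% and 70.7% in MS and 68.2%, 67.5% and 68.7% in MS+EA rats. That share was lower in every MS+EA rat than in any other rat.

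Kif17, the kinesin-2 that carries NMDA receptor vesicles in dendrites, was at 14.7, 14.5 and 15.4 CPM in Control, 13.5, 13.2 and 13.9 CPM in MS and 12.002, 12.5 and 12.8 CPM in MS+EA rats. The 3 groups were ordered without overlap, in the opposite direction to Kif5b. The log2 fold change in MS+EA against Control rats was -0.26 (SE 0.107), with an adjusted p of 0.176 by edgeR that did not pass.

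**Figure D2:**
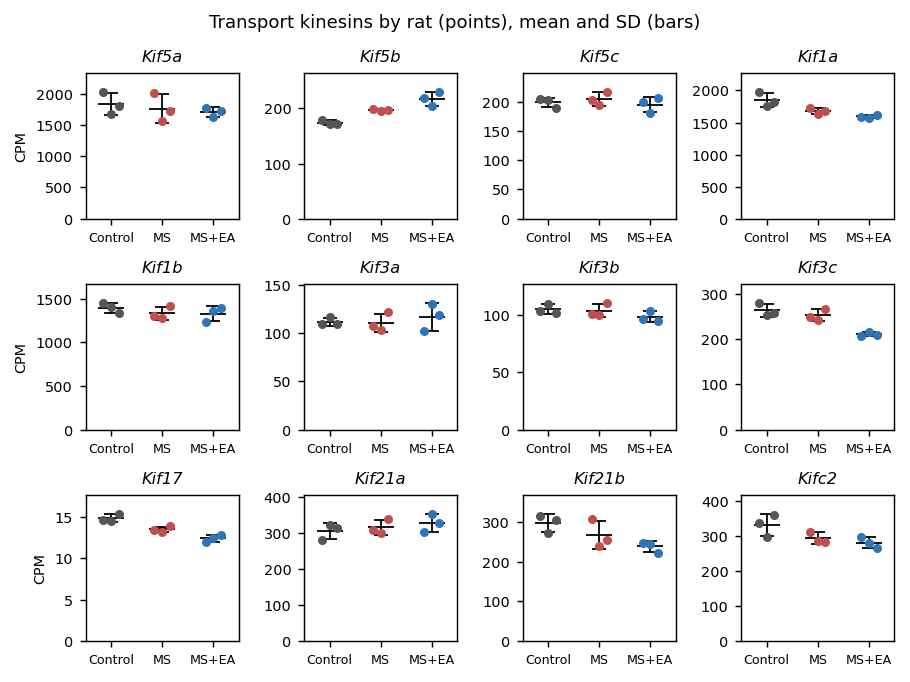
Level (y axis, CPM from 0) of 12 transport kinesins in each rat (points) of the Control, MS and MS+EA groups (x axis), with the mean and SD of 3 rats as bars. Kif5b steps upwards from 171 to 230 CPM without overlap of the groups, Kif3c is lower in the MS+EA rats (207 to 216 CPM) than in all others, and Kif1a and Kif17 step downwards.

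Kif1a, the kinesin-3 that carries synaptic vesicle precursors, was at 1979, 1758 and 1819 CPM in Control, 1733, 1638 and 1681 CPM in MS and 1592, 1567 and 1622 CPM in MS+EA rats. These groups too were ordered without overlap. The log2 fold change was -0.22 in MS+EA against Control rats (SE 0.0652, adjusted p = 0.0708 by edgeR) and -0.14 in MS against Control rats (adjusted p = 0.482), neither of which passed. Kif1b, its closest relative, which also carries mitochondria and synaptic vesicle precursors, was at 1447, 1409 and 1334 CPM, 1303, 1279 and 1421 CPM, and 1232, 1357 and 1400 CPM. Its groups overlapped, and its log2 fold change in MS+EA against Control rats was -0.07 (95% limits -0.21 to 0.07). In that comparison DESeq2 called 6 kinesin genes at an adjusted p under 0.05, and 1557 of all 16837 genes. By edgeR 3 kinesin genes and 910 of all genes passed. The genes added by DESeq2 were Kif1a, Kif21b and Kifc2, all lower in MS+EA rats.

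Kif21a and Kif21b belong to the kinesin-4 family, whose members can slow the growth of microtubules. Kif21a was at 280, 322 and 314 CPM in Control, 309, 299 and 340 CPM in MS and 303, 354 and 327 CPM in MS+EA rats, and the groups overlapped. Kif21b was at 316, 273 and 307 CPM, 309, 241 and 256 CPM, and 248, 246 and 223 CPM, with every MS+EA rat below every Control rat. For Kif21b the log2 fold change in MS+EA against Control rats was -0.32 (SE 0.0934, adjusted p = 0.0624 by edgeR), and that of Kif21a was 0.10 (adjusted p = 0.484). Of the reads on the pair, Kif21b took 45.8% to 53.0% in Control, 43.0% to 49.99% in MS and 40.5% to 44.95% in MS+EA rats.

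Kifc2, a minus-end-directed motor of neurons, was at 338, 296 and 360 CPM in Control, 313, 285 and 282 CPM in MS and 297, 280 and 266 CPM in MS+EA rats. In the MS+EA group 1 rat reached the lowest Control rat, and the log2 fold change between these groups was -0.24 (adjusted p = 0.101 by edgeR). Kifc3, another minus-end-directed motor, was at 9.53, 13.2 and 11.9 CPM, 11.2, 9.19 and 8.48 CPM, and 13.0, 11.7 and 11.3 CPM, lowest in the MS rats on average (log2 fold change 0.32 in MS+EA against MS rats, adjusted p = 0.433 by edgeR). Kif13a, a kinesin-3 that moves endosomes, was at 51.8, 53.9 and 50.4 CPM in Control, 51.2, 50.2 and 42.2 CPM in MS and 61.5, 47.6 and 60.4 CPM in MS+EA rats. Here 2 MS+EA rats stood above all other rats and the other lay among the MS rats, and the log2 fold change against MS rats was 0.24 (adjusted p = 0.388 by edgeR).

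**Figure D3:**
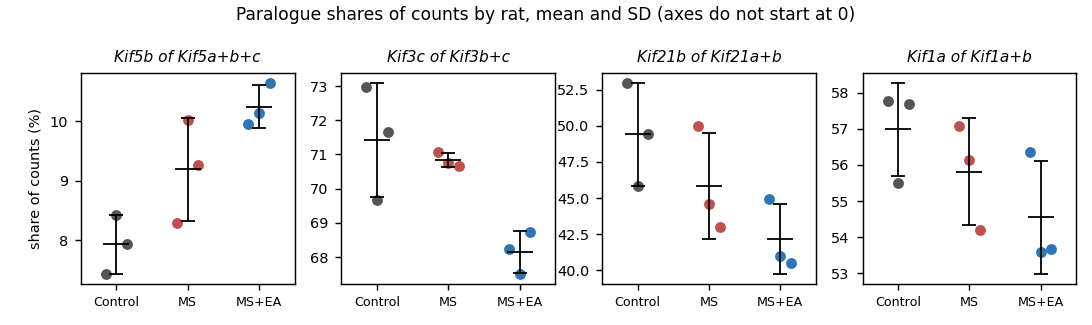
Share of reads (y axis, percent, not starting at 0) taken by a kinesin gene among its close relatives in each rat (points) of the 3 groups (x axis), with the mean and SD of 3 rats as bars. The share of Kif5b goes from 7.43% to 8.42% in Control to 9.95% to 10.6% in MS+EA rats, and the shares of Kif3c (67.5% to 68.7% in MS+EA rats) and Kif21b (40.5% to 44.95%) lie below those of the Control rats, while the share of Kif1a overlaps.

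Kif1c, Kif13b and Kif13a varied most between MS+EA rats among the transport kinesins. Kif1c was at 127, 115 and 124 CPM in Control, 135, 111 and 103 CPM in MS and 140, 87.8 and 118 CPM in MS+EA rats, and Kif13b was at 81.5, 59.4 and 68.2 CPM in the MS+EA rats. The summed level of 8 oligodendrocyte markers was 3339, 2828 and 2186 CPM, 2993, 1922 and 2253 CPM, and 4321, 2112 and 3168 CPM in the same order of rats. In each group the rat with the most oligodendrocyte marker RNA was also the rat with the most Kif1c. The part of oligodendrocytes in these values was not tested. All 8 of these markers had positive log2 fold changes in MS+EA against MS rats, and 0 passed the adjusted p by edgeR or DESeq2. For 2 of them the unadjusted p by edgeR was under 0.05, against 6.01% of all genes higher. Their summed levels overlapped between the groups. The 9 markers of cortical layers 6 and 6b also summed higher in MS+EA rats (176 to 216 CPM) than in MS rats (143 to 158 CPM), with Control rats from 157 to 202 CPM. Of these 9, 0 passed by edgeR while DESeq2 called 3, against 150 of all 16837 genes. The list holds Cplx3 and Syt6, which the study reported as changed in these rats, so it was not chosen independently of these data.

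Kif20b was the kinesin gene that changed between MS+EA and Control rats. It is a mitotic kinesin that acts in the last step of cell division, and it is also known to shape the axons of young cortical neurons. Its reads numbered 20, 10 and 17 in Control, 31, 30 and 19 in MS and 34, 40 and 32 in MS+EA rats, or 1.07, 0.610 and 1.06 CPM, 1.81, 1.88 and 1.14 CPM, and 2.36, 2.68 and 2.54 CPM. Every MS rat lay above every Control rat and every MS+EA rat above every MS rat. The means were 0.912 ± 0.262, 1.61 ± 0.405 and 2.53 ± 0.161 CPM (SD, n = 3 each). Its log2 fold change in MS+EA against Control rats was 1.46 (SE 0.331), or 2.75-fold, with an adjusted p of 0.0288 by edgeR. The steps from Control to MS (0.81, SE 0.336, adjusted p = 0.415 by edgeR) and from MS to MS+EA (0.65, SE 0.315, adjusted p = 0.424) did not pass.

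The call for Kif20b rested on few reads and on all but 1 of the rats compared. The adjusted p by edgeR was 0.0861, 0.0727 and 0.0658 without Control rats 1, 2 and 6, and 0.0717 and 0.0683 without MS+EA rats 10 and 16, and it stayed under the threshold at 0.0411 without MS+EA rat 3. Its log2 fold change stayed between 1.24 and 1.59. DESeq2 gave an adjusted p of 0.00824. A non-coding gene that overlaps Kif20b on GRCr8, LOC102549070, had 2 to 8 reads per rat with no order by group (4, 7 and 6 in Control, 3, 7 and 6 in MS, 7, 8 and 2 in MS+EA rats). Of the reads on mitotic kinesins, Kif20b took 8.89%, 4.69% and 7.46% in Control, 10.8%, 13.8% and 8.41% in MS and 14.0%, 14.7% and 15.7% in MS+EA rats.

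Promoters are shown for Kif20b, as the kinesin gene that changed, for Kif23, a mitotic kinesin that did not pass the test, and for Kif5b and Kif3c, the transport kinesins that passed the adjusted p in opposite directions. They were taken from RefSeq on GRCr8 and run 5′ to 3′ on the strand of the gene, from 250 bases before the start site to 50 after it. Capitals mark matches to the CCAAT box (CCAAT, or ATTGG on the opposite strand), a site of the general factor NF-Y, and to the cell cycle homology region, CHR (TTTGAA, or TTCAAA on the opposite strand), a site through which many cell cycle genes are held silent outside division. The windows lie at chr1:241840766-241841065 (plus strand) for Kif20b, chr8:71320535-71320834 (minus strand) for Kif23, chr17:56185136-56185435 (plus strand) for Kif5b and chr6:32086629-32086928 (plus strand) for Kif3c.
Kif20b: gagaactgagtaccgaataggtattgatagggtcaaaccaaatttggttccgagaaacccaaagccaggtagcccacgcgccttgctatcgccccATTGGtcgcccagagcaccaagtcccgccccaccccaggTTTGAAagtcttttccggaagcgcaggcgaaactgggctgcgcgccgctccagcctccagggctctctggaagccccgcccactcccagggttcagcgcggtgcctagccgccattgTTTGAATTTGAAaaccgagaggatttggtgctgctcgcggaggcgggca
Kif23: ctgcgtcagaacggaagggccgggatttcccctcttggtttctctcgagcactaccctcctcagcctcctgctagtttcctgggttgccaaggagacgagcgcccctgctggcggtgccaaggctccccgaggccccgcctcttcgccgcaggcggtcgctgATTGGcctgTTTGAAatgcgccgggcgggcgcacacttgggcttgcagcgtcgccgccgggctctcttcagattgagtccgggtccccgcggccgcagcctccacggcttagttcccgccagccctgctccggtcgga
Kif5b: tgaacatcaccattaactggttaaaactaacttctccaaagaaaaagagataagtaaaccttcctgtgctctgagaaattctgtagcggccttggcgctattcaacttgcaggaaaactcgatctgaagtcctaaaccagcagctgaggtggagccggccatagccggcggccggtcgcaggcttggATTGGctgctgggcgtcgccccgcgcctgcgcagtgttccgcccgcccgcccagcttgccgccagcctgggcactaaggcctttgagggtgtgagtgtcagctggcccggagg
Kif3c: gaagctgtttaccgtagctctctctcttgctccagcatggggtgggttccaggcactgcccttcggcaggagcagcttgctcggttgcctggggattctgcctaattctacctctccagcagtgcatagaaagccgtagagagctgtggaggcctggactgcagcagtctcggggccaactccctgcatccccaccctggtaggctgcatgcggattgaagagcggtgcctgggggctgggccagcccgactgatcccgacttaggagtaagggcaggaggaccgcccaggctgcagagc

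The Kif20b window held a CCAAT box whose first base lies at -155 from the start site and CHR matches at -116, 2 and 8. Kif23 held a CCAAT box at -88 and a CHR at -79, Kif5b held a CCAAT box at -63, and Kif3c held neither. RefSeq had a promoter for 30 of the 39 kinesin genes. A CCAAT box stood in 7 of 8 mitotic kinesin promoters, in 3 of 12 of the transport kinesins (Kif1b, Kif3b and Kif5b) and in 37.5% of all 33469 rat promoters. A CHR stood in 5 of 8 mitotic kinesin promoters (Kif4a, Kif20b, Kif22, Kif23 and Kifc1), in 0 of 12 of the transport kinesins and in 18.3% of all promoters. The cyclic AMP response element (TGACGTCA, the same on both strands) stood in the promoters of Kif5c, Kif17, Klc1 and Kif18a and in 1.83% of all promoters. Matches of different motifs did not overlap in the windows shown, and a match is no evidence that a factor binds there. Among the other kinesins, 2 of 7 promoters held a CHR (Kif26b and Kif28p) and 3 of 7 a CCAAT box. The mitotic kinesins with a CHR had log2 fold changes in MS+EA against Control rats from -0.40 (Kif4a) to 1.46 (Kif20b).

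The other mitotic kinesins gave few reads. Kif18a, which limits the length of spindle microtubules, had 4, 4 and 5 reads in Control, 5, 13 and 17 in MS and 12, 11 and 8 in MS+EA rats. All MS+EA rats and 2 of 3 MS rats lay above the Control rats, with log2 fold changes of 1.44 in MS against Control (adjusted p = 0.351 by edgeR) and 1.504 in MS+EA against Control rats (SE 0.545, adjusted p = 0.123), neither of which passed. Kif4a, a chromosome-bound motor, had 15, 4 and 9 reads, 25, 14 and 13 reads, and 7, 4 and 6 reads. It was lower in every MS+EA rat than in any MS rat (log2 fold change -1.34, SE 0.514, adjusted p = 0.325 by edgeR). Kif4b, which RefSeq lists as a pseudogene, resembles Kif4a, and how reads were divided between them is uncertain.

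Kif11, the motor that pushes the spindle poles apart, had 36, 13 and 15 reads in Control, 8, 17 and 15 in MS and 17, 22 and 22 in MS+EA rats. Control rat 1 alone stood above all MS+EA rats, and the log2 fold change in MS+EA against MS rats was 0.85 (SE 0.442, adjusted p = 0.447 by edgeR). Kif22, which pushes chromosomes away from the poles, had 6, 6 and 2 reads, 13, 1 and 3 reads, and 9, 4 and 10 reads, and its groups overlapped. Kif23, which bundles microtubules at the midzone of the dividing cell, was at 3.37, 5.31 and 6.71 CPM in Control, 5.77, 3.94 and 4.93 CPM in MS and 5.41, 6.23 and 5.64 CPM in MS+EA rats. Its log2 fold change in MS+EA against Control rats was 0.17 (95% limits -0.30 to 0.65), which does not reach that of Kif20b. A difference of the size of Kif5b was not detectable at the depth of most mitotic kinesins.

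**Figure D4:**
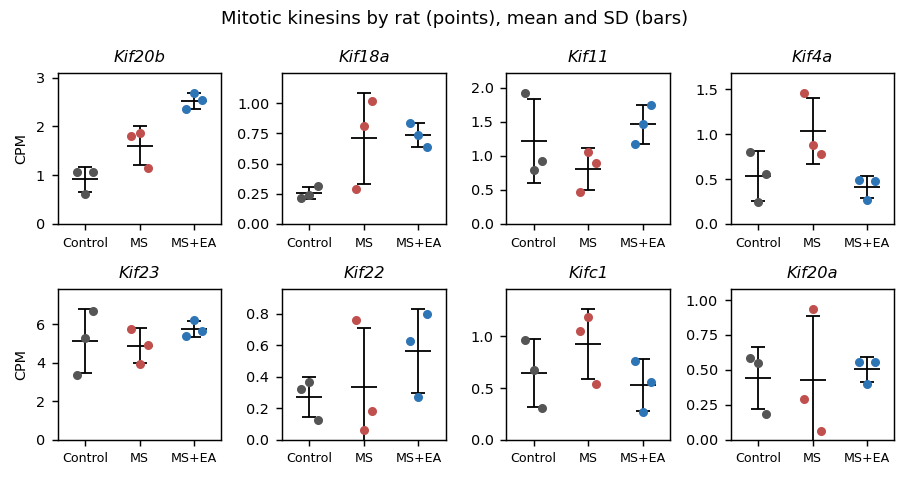
Level (y axis, CPM from 0) of 8 mitotic kinesins in each rat (points) of the Control, MS and MS+EA groups (x axis), with the mean and SD of 3 rats as bars. Kif20b steps upwards from 0.610 to 2.68 CPM without overlap of the groups, Kif18a is higher in MS+EA than in Control rats, and the other 6 genes overlap between MS+EA and Control rats.

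Summed over the 9 mitotic kinesins, the level was 12.04 to 14.2 CPM in Control, 13.6 to 16.7 CPM in MS and 16.2 to 18.3 CPM in MS+EA rats, so that every MS+EA rat lay above every Control rat. The sum holds Kif20b itself (group means 0.912, 1.61 and 2.53 CPM) and the pseudogene Kif4b (3.66, 3.92 and 4.60 CPM). It was not recomputed without them. The list of 20 other cell cycle genes summed to 51.1 to 55.9 CPM, 52.1 to 52.7 CPM and 53.1 to 61.2 CPM. Its MS+EA rats lay above the MS rats and overlapped with the Control rats. Of its 16 genes tested, 0 passed the adjusted p in any comparison by edgeR or DESeq2. The unadjusted p by edgeR was under 0.05 for 0 genes in MS against Control, 2 in MS+EA against MS and 0 in MS+EA against Control rats. Over all genes it was under 0.05 for 7.06%, 6.01% and 11.9% higher and for 3.55%, 6.42% and 10.6% lower, in the same order. The smallest p in MS+EA against Control rats belonged to Nusap1, a spindle protein (log2 fold change 0.84, adjusted p = 0.308 by edgeR), and Birc5, an inhibitor of cell death that also serves cell division (0.79, adjusted p = 0.309).

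Of the 10 other kinesins, 9 were tested and 0 differed at an unadjusted p under 0.05 by edgeR in any comparison. Over all genes, in the order used above, 7.06%, 6.01% and 11.9% were higher and 3.55%, 6.42% and 10.6% lower at that p. With 9 genes, 0 does not set this list apart from other genes. By DESeq2 0 passed the adjusted p, against 198, 150 and 1557 of all 16837 genes. Kif2a, which takes microtubules apart and prunes axon branches, was at 114, 121 and 115 CPM in Control, 120, 116 and 141 CPM in MS and 117, 140 and 131 CPM in MS+EA rats. Its log2 fold change in MS+EA against Control rats was 0.15 (SE 0.0867, adjusted p = 0.345 by edgeR). Kif28p varied most within the MS and MS+EA groups, with 6, 7 and 3 reads in Control, 29, 1 and 5 in MS and 9, 32 and 2 in MS+EA rats. Kif6 lay wholly lower in MS (2.39 to 2.95 CPM) than in Control rats (3.10 to 3.54 CPM), with an adjusted p of 0.773 by edgeR. Kif7, the motor of hedgehog signalling in cilia, had a log2 fold change of -0.04 in MS+EA against Control rats (adjusted p = 0.924 by edgeR).

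Genes that work with kinesins were counted in the same way. Between MS and Control and between MS+EA and MS rats, 0 of the 18 cargo adaptors, 22 dynein and dynactin genes, 22 microtubule-associated proteins and 18 genes of intraflagellar transport passed the adjusted p by edgeR. In MS against Control rats the unadjusted p was under 0.05 for 1, 1, 0 and 0 of them higher and for 3, 2, 0 and 0 lower. In MS+EA against MS rats it was under 0.05 for 1, 1, 2 and 4 higher and for 2, 2, 3 and 0 lower. There 14 of the 18 intraflagellar transport genes had a log2 fold change above 0, with a median of 0.12. Over all genes, that p was under 0.05 for 7.06% higher and 3.55% lower in the former comparison and for 6.01% and 6.42% in the latter. DESeq2 called 1 cargo adaptor in the former and 0 genes of these lists in the latter, against 198 and 150 of all 16837 genes. Against Control, the MS+EA rats differed in 3 of 18 cargo adaptors at the adjusted p, against 5.40% of all genes, and all were lower. Hap1, which links kinesin-1 and dynactin to huntingtin, was at 86.4, 101 and 88.8 CPM in Control, 63.0, 63.0 and 76.1 CPM in MS and 66.5, 71.9 and 68.9 CPM in MS+EA rats (log2 fold change -0.41 in MS+EA against Control, adjusted p = 0.0252 by edgeR). Its MS rats already lay below the Control rats, which differs from the order seen for Kif3c. Rhot2, a mitochondrial anchor of kinesin-1, had a log2 fold change of -0.32 (adjusted p = 0.0384 by edgeR). That of Rhot1, on the same list, was 0.11 (adjusted p = 0.347 by edgeR). Mapk8ip2, a kinase scaffold carried by kinesin light chains, had -0.22 (adjusted p = 0.0446 by edgeR). The median of the 18 adaptors was -0.09.

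Dynein drives transport in the opposite direction, towards the cell body. Of its 22 genes, 2 passed the adjusted p by edgeR in MS+EA against Control rats, against 5.40% of all genes. Dynlt3, a light chain, was past both thresholds, against 1.37% of all genes (log2 fold change 0.68, SE 0.135, adjusted p = 0.0175 by edgeR). It was at 59.0, 67.9 and 62.5 CPM in Control and 82.0, 121 and 101 CPM in MS+EA rats. Dctn3, a dynactin subunit, was lower (log2 fold change -0.33, adjusted p = 0.0339 by edgeR), and the median of the list was -0.08. Of the 22 microtubule-associated proteins, 3 passed the adjusted p, against 5.40% of all genes, and all were lower: Map1s (log2 fold change -0.37, adjusted p = 0.0207 by edgeR), Map6 (-0.31, adjusted p = 0.0224) and Mapt, the gene of tau (-0.38, adjusted p = 0.0490). None of these 3 reached the fold change threshold, and the median of the list was -0.04. Of the 18 genes of intraflagellar transport, the cargo system that kinesin-2 moves in cilia, 0 passed by edgeR. DESeq2 called 1 of them, against 1557 of all 16837 genes. At an unadjusted p under 0.05 by edgeR 2 were higher, against 11.9% of all genes. The nearest to passing was Ift88 (log2 fold change 0.36, adjusted p = 0.0667 by edgeR).

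Among the marker lists, 1 of 10 neuron markers passed the adjusted p in MS+EA against Control rats, against 5.40% of all genes. It was Slc17a7, the glutamate transporter of cortical excitatory neurons (log2 fold change -0.30, adjusted p = 0.0207 by edgeR), which was lower like Kif3c, Kif1a and Kif21b. Of the neuron markers 6 had a positive log2 fold change, and the median was 0.04. The part of excitatory neuron RNA in the values of these kinesins was not tested. Of 7 endothelial markers 1 passed in MS+EA against Control rats, against 5.40% of all genes. It was Abcb1a (log2 fold change 0.42, adjusted p = 0.0224 by edgeR), which was higher like Kif5b. The endothelial markers ranged there from -0.37 to 0.42 with a median of 0.06 and 2 below 0. Their summed level was 303 to 430 CPM in Control, 349 to 403 CPM in MS and 323 to 369 CPM in MS+EA rats. In MS against Control rats 6 of the 7 were above 0 (median 0.27). There 3 were higher at an unadjusted p under 0.05 by edgeR, against 7.06% of all genes. DESeq2 called 2 at the adjusted p, against 198 of all 16837 genes. In MS+EA against MS rats 5 were below 0 (median -0.15), while Kif5b was higher. The part of vessel RNA in Kif5b was not tested. The remaining lists were oligodendrocytes, their precursors, astrocytes, microglia, striatum, layer 6 and ependyma and choroid plexus. In MS+EA against Control rats they gave 0 genes at the adjusted p by edgeR or DESeq2. At edgeR's unadjusted p under 0.05 they gave 1, 1, 0, 1, 1, 1 and 0 genes, against 11.9% of all genes higher and 10.6% lower. In the choroid plexus list, MS rat 4 stood apart at 30.1 CPM against 11.1 to 19.2 CPM in the other rats.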

How the data were processed

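RNA depleted of rRNA from the frontal cortex of 9 rats was sequenced by the authors, who mapped the reads to Rnor_6.0 with HISAT2 2.0.4, as their processing notes list, and deposited whole-number read counts per gene without normalization. The counting program, its strand setting and the treatment of reads with several locations are not given in the sources used here, so reads of overlapping genes cannot be separated. The deposited totals are well below the numbers of mapped reads that the study gives, and whether only part of the reads was counted is not known. Groups were taken from the sample labels. Counts were analysed with edgeR 4.0.16 in R 4.3.3. TMM scaling and filterByExpr (minimum count 10) were applied to all 9 rats, each group had its own mean in the quasi-likelihood model, and p-values were adjusted by Benjamini-Hochberg over 16837 genes. The biological coefficient of variation was 12.7%. The thresholds (adjusted p of 0.05, fold change of 1.5) follow the study, which used EBSeq. The standard error was derived from F (absolute log2 fold change over the root of F). The 95% limits lie 1.96 standard errors to either side, which is approximate and somewhat narrower than the test implies. For Kif1a in MS against Control rats they were -0.265 to -0.0095, with an unadjusted p of 0.0559 by edgeR. Each p-value sets a difference between groups against a spread between rats that was estimated from all 9 rats and moderated across genes.

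Alternatives were DESeq2 1.42.0, bias-adjusted deviances, RLE or total-count scaling, filters of 10 counts in every rat or 1 count, fits of only the 6 rats compared, omission of the fold change threshold, and each rat left out. The script was tested on simulated counts. The members, gene lists and motifs were chosen with earlier results of these data known. Values in every rat are given for 23 kinesin genes, named by role (such as the subunits of kinesin-1) or by the 3 smallest p per direction and comparison, and for genes past both thresholds. From other lists, genes past both thresholds or the 2 with the smallest p are named. Klc3, Klc4, Kif1c, Kif4b, Kif6, Kif7, Kif13b, Kif28p, Mapk8ip2, Mapt and Rhot1 were named after their values were seen. Cplx3 and Syt6 were named because the study reported them. Tables were made with Python 3.11.15 and pandas 2.3.3. Lengths of transcripts and protein sequences were not used here, so levels were not compared between genes.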

Additional observations from a re-analysis of the deposited data

How the results depend on the processing

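No paired analysis was possible because the groups compared share fewer than 2 replicate numbers and their rats are different animals. The number of kinesin genes at an unadjusted p under 0.05 by edgeR went from 4 to 2 in MS against Control rats under the stricter filter of 10 counts per rat, which left fewer mitotic kinesins and moved their median log2 fold change from 0.40 to 0.11. In MS+EA against MS rats it went from 4 to 2 when only the 6 rats compared were fitted. In MS+EA against Control rats, 3 kinesin genes were called with no fold change threshold. When single rats were omitted, the count at an unadjusted p under 0.05 lay between 1 and 5 in MS against Control and between 2 and 5 in MS+EA against MS rats, and the count past both thresholds in MS+EA against Control rats lay between 0 and 1. The mitotic median lay between 0.16 and 0.68 in MS against Control, between 0.12 and 0.40 in MS+EA against MS and between 0.18 and 0.46 in MS+EA against Control rats, and the transport median in the last between -0.072 and -0.018. Without MS rat 4 the first of these counts was 1, without MS rat 6 it was 2 and the second was 2. The cause was not tested, beyond the smaller number of rats. The transport median in MS+EA against MS rats, -0.01, turned to 0.03 under total counts and lay between -0.06 and 0.04 with a rat omitted, above 0 without MS rat 3. No other list median or named log2 fold change among those recomputed changed sign. Over all genes, counts past both thresholds moved by more than 1.5 times with DESeq2 (70 instead of 4 in MS against Control and 37 instead of 3 in MS+EA against MS) and with the filter of 1 count (207, 72 and 469 instead of 4, 3 and 230). In MS against Control they were 11 with the 6 rats compared and 2 to 22 with a rat left out. In MS+EA against MS they were 1 with bias-adjusted deviances, 0 with 10 counts in every rat and 1 with the 6 rats compared. In MS+EA against Control they were 71 to 261 with a rat left out. Under total counts the genes at an unadjusted p under 0.05 in MS+EA against MS were 1518 higher and 647 lower, instead of 1012 and 1081, and in MS+EA against Control 2325 and 1414, instead of 2008 and 1779. Low read numbers limit what can be detected for most mitotic kinesins.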
